A study of Mus musculus with 12 samples.

Results

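The nuclear receptor superfamily of transcription factors was examined in the livers of refed mice that carry a point mutation in 1 of its members, LRH-1. The genes examined were the 45 listed nuclear receptor genes other than those for LRH-1 itself (Nr5a2) and for its partner SHP (Nr0b2). They were found by gene symbol in the platform annotation of the array, and 43 of the 45 were matched to a probe set, 1 each, among 19938 genes tested. Nr1h2 and Nr2e3 were not matched by symbol and were not analysed here. Livers came from 6 male mice with the K289R knock-in of LRH-1 and from 6 male wild-type (WT) mice, all on the C57BL/6J background. Every mouse in both groups had gone 24 h without food and then eaten for 6 h, and was killed at 8 am. Each array held liver RNA of 1 mouse. The labels give neither the age of the mice nor whether the knock-in was on 1 allele or both. In bulk liver RNA, fewer cells of a type and less RNA per cell cannot be told apart.

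Nuclear receptors bind DNA and recruit coactivators or corepressors, and many of them change partners when a small lipid-soluble ligand binds. In the liver they sense fatty acids, oxysterols, bile acids, thyroid and steroid hormones, haem and foreign chemicals, and they set the transcription of metabolic genes after fasting and feeding. Several bind DNA only as a pair with a retinoid X receptor (RXR), and several others are orphans with no agreed ligand. The K289R change replaces a lysine of LRH-1 at which the small protein SUMO can be attached. LRH-1 binds as a monomer to a nuclear receptor half-site, AGGTCA, with an extension on its 5′ side.

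Promoter sequence is shown for 4 of these genes, the pair that varied most among mice (Nr1d1 and Nr1d2) and the pair of xenobiotic receptors (Nr1i2 and Nr1i3), because the data below turn on both pairs. Each run is the 250 bases before the annotated start in RefSeq (GRCm38.p6), read 5′ to 3′ on the strand of the gene. The windows are chr11:98775378-98775627 (minus strand) for Nr1d1, chr14:18239107-18239356 (minus strand) for Nr1d2, chr16:38294825-38295074 (minus strand) for Nr1i2 and chr1:171213720-171213969 (plus strand) for Nr1i3. Capitals mark matches to 3 motifs searched on both strands, the extended half-site CAAGGNCA of the LRH-1 family, the half-site AGGTCA and the E-box CACGTG. The form of the first with T in place of N contains the second.
Nr1d1 promoter: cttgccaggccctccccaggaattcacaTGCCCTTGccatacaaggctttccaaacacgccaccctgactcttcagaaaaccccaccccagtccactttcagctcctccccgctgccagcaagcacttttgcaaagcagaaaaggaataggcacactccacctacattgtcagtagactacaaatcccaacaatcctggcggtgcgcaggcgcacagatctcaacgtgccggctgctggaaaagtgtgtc
Nr1d2 promoter: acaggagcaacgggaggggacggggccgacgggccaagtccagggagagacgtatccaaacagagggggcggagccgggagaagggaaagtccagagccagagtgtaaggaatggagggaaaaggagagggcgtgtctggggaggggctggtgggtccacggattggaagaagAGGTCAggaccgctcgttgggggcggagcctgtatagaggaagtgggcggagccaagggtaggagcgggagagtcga
Nr1i2 promoter: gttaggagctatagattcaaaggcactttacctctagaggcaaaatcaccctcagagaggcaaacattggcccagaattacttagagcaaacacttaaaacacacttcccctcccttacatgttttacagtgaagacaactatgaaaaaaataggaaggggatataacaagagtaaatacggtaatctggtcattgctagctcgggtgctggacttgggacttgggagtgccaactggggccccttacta
Nr1i3 promoter: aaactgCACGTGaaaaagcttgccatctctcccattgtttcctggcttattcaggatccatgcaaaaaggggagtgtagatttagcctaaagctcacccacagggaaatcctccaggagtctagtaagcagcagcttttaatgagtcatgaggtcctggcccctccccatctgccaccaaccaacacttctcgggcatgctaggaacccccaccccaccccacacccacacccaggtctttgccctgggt
The Nr1d1 window held 1 extended half-site, read on the other strand. The Nr1d2 window held 1 plain half-site, the Nr1i3 window 1 E-box and the Nr1i2 window none of the 3. The windows of Ppard, Rora and Nr2c1, the genes with the smallest adjusted p below, held none of them either. Across 32851 RefSeq promoter windows of mouse genes, 5.53% held the extended half-site, 14.0% the half-site and 6.02% the E-box. The 39 receptor genes with a window had 59 windows, so some genes had several. Of these 59 windows, 2 held the extended half-site, 10 the half-site and 4 the E-box. By gene, the extended half-site was found for 2 (Nr1d1 and Rara) and the half-site for 9. The E-box was found for 4 genes (Esr2, Nr1i3, Rara and Thrb). Counts by gene are not comparable with the shares of windows. Thra, Hnf4g, Nr5a1 and Nr3c1 had no window in the table. A match describes these letters and shows no binding.

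Values are linear probe-set intensities, and a difference is the mean log2 intensity of K289R minus that of WT. Intensities of different genes are not compared, because each probe set has its own sensitivity. Array medians ran from 26.8 to 29.2, and 29 of the 43 genes lay above the array median on all 12 arrays. Another 10, termed dim below, lay under it on all 12, with intensities of 6.86 to 21.3, and 4 were mixed. The log2 values of any 2 arrays correlated at 0.979 to 0.991. Hepatocyte markers had a mean log2 intensity of 11.59 to 11.75 in K289R livers and 11.47 to 11.80 in WT livers. Endothelial markers gave 7.22 to 7.46 in K289R and 6.97 to 7.34 in WT livers, with 10 of 10 differences positive. Lymphocyte markers gave 3.83 to 4.07 in K289R and 3.96 to 4.08 in WT livers, with 4 of 6 differences negative. Of 4 measured adipocyte markers, 1 was higher in K289R at a limma adjusted p under 0.05. Some arrays stood apart on lists of other transcripts. The mean of pancreatic acinar markers was 8.75 (K289R 1) and 9.42 (K289R 3), and 4.25 to 4.55 on the rest. The mean log2 level of acute phase genes was 9.18 (WT 1) and 9.25 (WT 3), and 7.65 to 8.35 on the other arrays. That of skeletal muscle markers was 5.88 (K289R 3) and 7.04 (WT 1), and 4.55 to 4.95 on the rest. The part of these transcripts in the receptor results was not tested. Values without K289R 1 and 3 or without WT 1 and 3 are given beside each call that was lost when they were left out, and for several receptors.

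No nuclear receptor gene passed the test. A gene was called when its limma p, adjusted by Benjamini-Hochberg over all genes tested, was under 0.05. That held for 0 of 43 receptors, where 114 of 19938 genes passed (0.572%), 96 of them higher (0.481%) and 18 lower (0.0903%) in K289R livers. At an unadjusted p under 0.05, 9 of the 43 receptors (20.9%) were on the higher side in K289R, where 6.42% of all genes lay, and 3 (6.98%) on the lower side, where 5.61% lay. The 9 were Ppard, Rora, Nr2c1, Thra, Nr1i2, Nr1i3, Nr1h4, Ppara and Thrb, and the 3 were Nr4a1, Esrrb and Nr2f1. Signs were balanced over the whole family, with 22 positive and 21 negative differences. Their median was 0.00, against -0.01 for all genes, and they ran from -0.33 (Nr4a1) to 0.69 (Nr1d1). All 9 receptors on the higher side lay above the array median on all 12 arrays. The 3 on the lower side were among 12 receptors removed by a filter on low intensity, described below. With that filter, which kept 11557 genes, the median of the receptors kept was 0.10. The median of all genes kept is not given here, so the -0.01 above is not its counterpart. In no receptor gene were the 2 genotypes fully apart, against 1.24% of all genes.

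**Figure D1:**
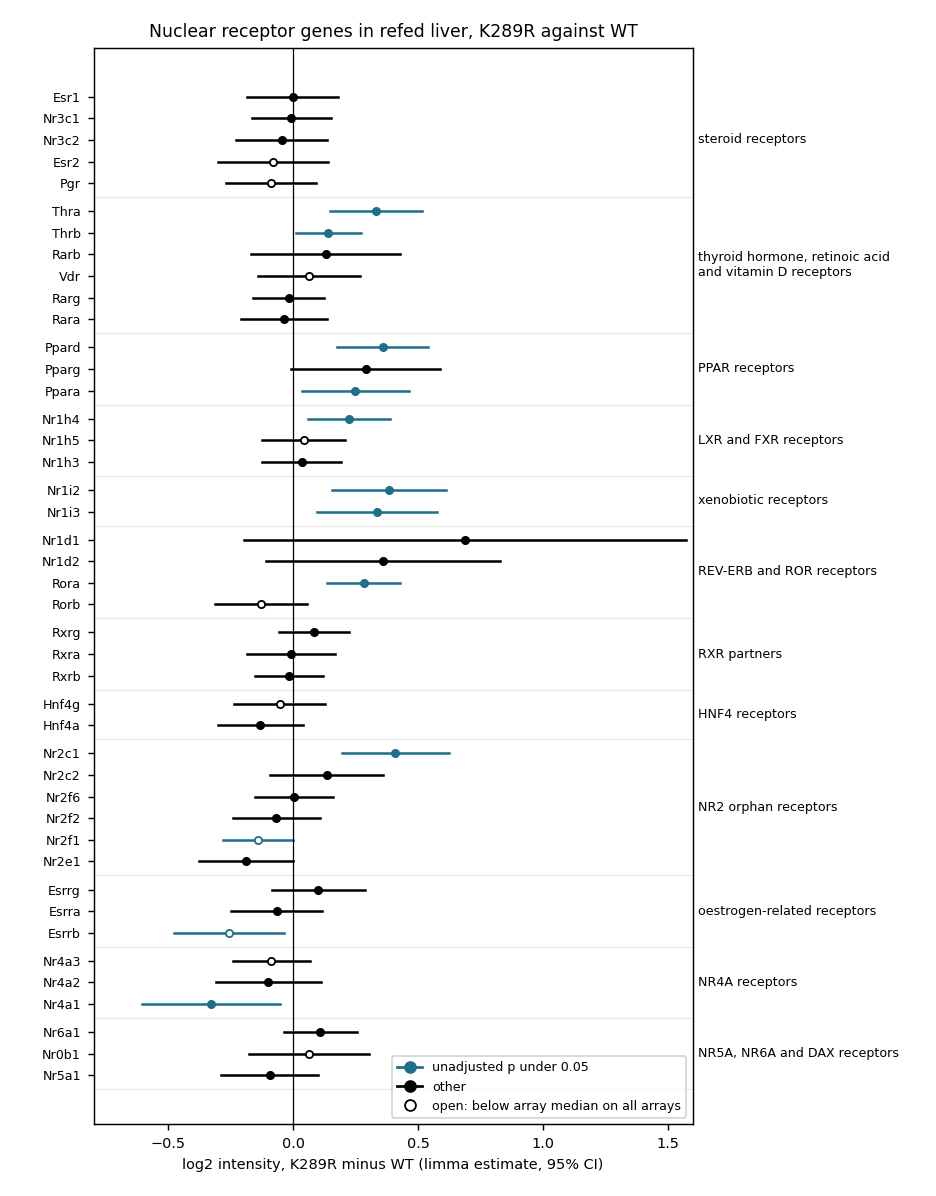
Difference in log2 intensity (K289R minus WT) of the 43 nuclear receptor genes, grouped by role, with 95% confidence intervals from limma over 6 arrays per genotype. Blue marks the 12 genes at an unadjusted p under 0.05 and open circles the 10 genes below the array median on all arrays; the widest interval is that of Nr1d1, and no gene had an adjusted p under 0.05.

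Both xenobiotic receptors lay on the higher side in K289R livers, and neither was called. PXR (Nr1i2), which senses drugs and bile acids and induces detoxifying enzymes, measured 268, 264, 343, 284, 299 and 315 on the K289R arrays, against 252, 234, 159.8, 229.8, 266 and 230.2 on the WT arrays. Of the 6 K289R values, 5 exceeded every WT value, and the remaining 1 lay just below the highest WT value of 266. The log2 difference was 0.38 (95% CI 0.16 to 0.61) with an adjusted p of 0.146. CAR (Nr1i3), which shares many targets with PXR, measured 611, 641, 606, 645, 686 and 539.8 on the K289R arrays, against 611, 495, 369, 619.9, 482 and 421 on the WT arrays. Its groups overlapped more, with 3 of 6 K289R values above all WT values, and the difference was 0.34 (95% CI 0.10 to 0.58, adjusted p = 0.249). The lowest WT value of both genes came from array WT 3. Acute phase transcripts were high on WT 3 and also on WT 1, where Nr1i2 measured 252 and Nr1i3 611. Without arrays WT 1 and WT 3 the difference was 0.30 for Nr1i2 (adjusted p = 0.222) and 0.31 for Nr1i3 (adjusted p = 0.293).

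Of 17 measured PXR and CAR target genes of 20 listed, 1 was called higher in K289R and none lower, and 16 were not called. The median difference of the list was 0.06, against -0.01 for all genes, with 11 positive and 6 negative differences. The called gene was Cyp2b9, a cytochrome P450 of the Cyp2b family. It measured 237, 34.4, 162, 207, 154 and 25.6 on the K289R arrays, against 35.1, 16.7, 10.6, 14.2, 19.8 and 22.7 on the WT arrays, a difference of 2.45 (adjusted p = 0.0265). Only 4 of the 6 K289R livers were above all WT livers, and 5 of 6 WT values lay below their array median. Genes of the Cyp2b family are much alike in sequence, so a probe set may also read its relatives. Leaving out 1 array in turn removed the call of Cyp2b9 in 7 of 12 cases (K289R 1, 3, 4 and 5 and WT 2, 3 and 4). K289R 1 and 3, the arrays with pancreatic transcripts, held 2 of its 4 high values. Its adjusted p was 0.159 without those arrays, 0.0727 without WT 1 and WT 3, 0.235 without all 4 and 0.135 with a trended and robust variance model. With all rows tested it was 0.118. Abcc2, the canalicular export pump, had values of 1290.2 to 1462 in K289R livers and 841 to 1290.1 in WT livers that only just did not overlap, and its adjusted p was 0.133.

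**Figure D2:**
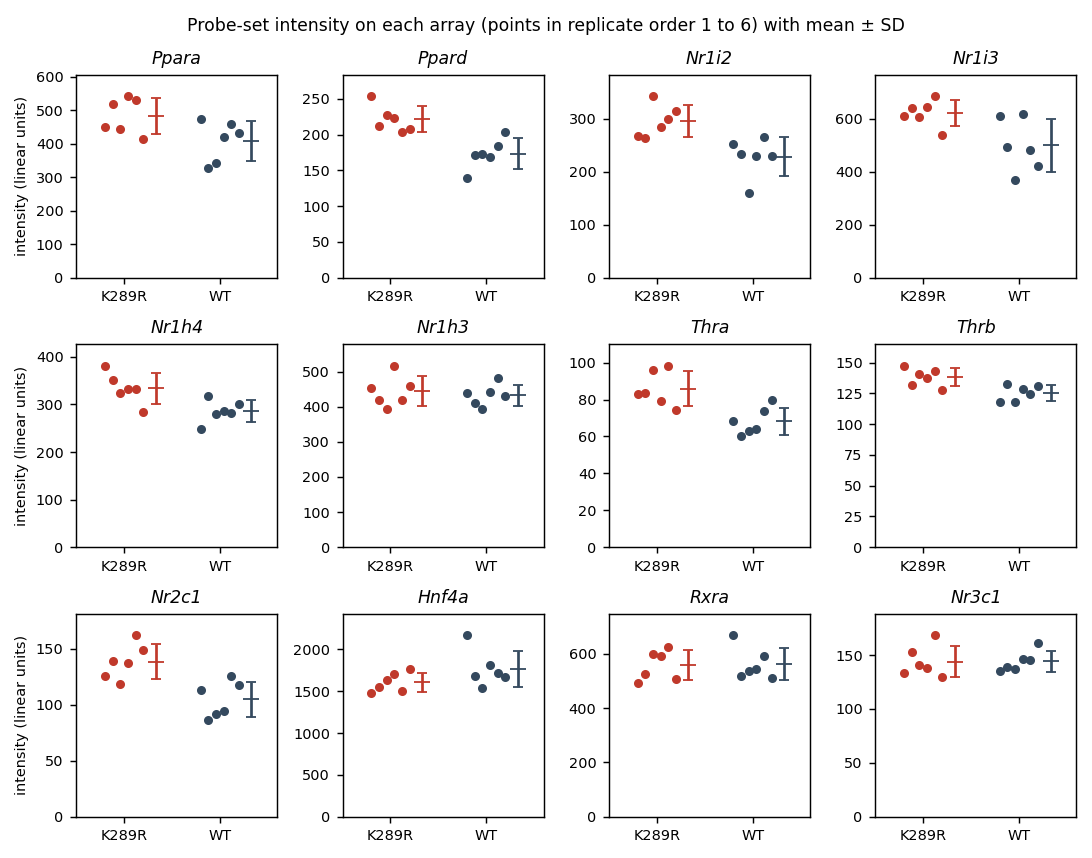
Probe-set intensity (linear units) on each array for 12 receptors, with K289R left of WT; points run in array order 1 to 6 and the bars give mean ± SD (n = 6 each). In Ppard, Nr1i2, Nr1h4 and Nr2c1, 5 of 6 K289R points lie above the highest WT point, whereas in Nr1h3, Rxra and Nr3c1 the groups cover the same range.

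The peroxisome proliferator-activated receptors bind fatty acids. PPAR delta (Ppard), which is active in glucose and lipid handling in many tissues, measured 254, 213, 228, 223, 203 and 208 on the K289R arrays, against 139, 172, 173, 169, 184 and 204 on the WT arrays. Of the 6 K289R values 5 lay above all WT values, and the lowest, 203, was just under the highest WT value of 204. Its mean was 221 ± 18.2 in K289R and 173 ± 21.3 in WT (SD, n = 6 each), 1.28-fold, with a log2 difference of 0.36 (95% CI 0.18 to 0.54). The adjusted p of 0.0796 was the smallest of all receptors. It was 0.0356 with array WT 6 left out, and ran from 0.0356 to 0.172 over the 12 single arrays left out. Without WT 1 and WT 3 it was 0.227, and without those and K289R 1 and K289R 3 the difference was 0.22 (adjusted p = 0.554). PPAR alpha (Ppara), the hepatocyte fatty acid sensor of the fasted state, measured 449, 519, 445, 542, 532 and 415 on the K289R arrays, against 473, 328, 342, 421, 458 and 431 on the WT arrays. The groups overlapped widely and the difference was 0.25 (adjusted p = 0.343). PPAR gamma (Pparg), best known from adipocytes, had a difference of 0.29 (adjusted p = 0.432), with 99.3 to 124 in K289R livers inside the wider range of 67.4 to 127 in WT livers.

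Among 23 measured PPAR alpha targets of 25, 1 gene was called higher and none lower, and at an unadjusted p under 0.05 9 were higher and 1 lower, where 6.42% of all genes were higher and 5.61% lower. The share at that p in either direction was 43.5%. It was 71.4% for thyroid hormone receptor targets, 46.2% for LXR, 38.5% for FXR and 37.5% for glucocorticoid receptor targets. For PXR and CAR targets it was 23.5%, for HNF4 alpha targets 7.14% and for REV-ERB and ROR targets 0%. The median of the PPAR alpha list was 0.16. The called gene was Acot3, a peroxisomal acyl-CoA thioesterase, at 53.6 ± 12.9 in K289R and 33.4 ± 5.40 in WT (SD, n = 6 each), 0.67 on the log2 scale with an adjusted p of 0.0404. It lost the call in 9 of 12 single left-out arrays, and kept it without K289R 3, K289R 6 or WT 6. The adjusted p was 0.0954 without K289R 1 and K289R 3, 0.0727 without WT 1 and WT 3 and 0.124 without all 4. With all rows tested it was 0.138. Cd36, a fatty acid translocase, had the next smallest p and was not called (difference 1.14, adjusted p = 0.133), with values of 168 to 375 in K289R and 60.1 to 228 in WT livers.

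Neither the bile acid receptor nor the oxysterol receptor was called. FXR (Nr1h4), which senses bile acids and represses their synthesis, measured 381, 352, 324, 333, 332 and 284 on the K289R arrays, against 249, 317, 279.9, 286, 283 and 300.3 on the WT arrays. Here 5 of 6 K289R values were above all WT values, and the difference was 0.22 (95% CI 0.06 to 0.39) with an adjusted p of 0.259. Without K289R 1 and 3 and WT 1 and 3 it was 0.13 (adjusted p = 0.738). LXR alpha (Nr1h3), which drives sterol export and fatty acid synthesis genes, measured 452, 419.6, 395, 516, 419.5 and 460.0 on the K289R arrays, against 439, 411, 393, 441, 482 and 430.0 on the WT arrays. The 2 genotypes covered the same range, with a difference of 0.03 (95% CI -0.12 to 0.19, adjusted p = 0.884). FXR beta (Nr1h5) was dim and gave 0.04 (adjusted p = 0.855).

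Of the 13 LXR targets, all measured, 2 were called higher and none lower, with a list median of 0.23. They were Abcg5 and Abcg8, which together form the sterol export pump. Abcg5 measured 279, 261, 349, 349, 352 and 294 on the K289R arrays, against 212, 176, 163, 202, 243 and 190.4 on the WT arrays, with no overlap (difference 0.67, adjusted p = 0.00426). Its call was lost only without all 4 of the arrays K289R 1 and 3 and WT 1 and 3 (adjusted p = 0.0573), among 23 alternatives. Abcg8 had 224 ± 35.0 in K289R and 148 ± 19.8 in WT (SD, n = 6 each), a difference of 0.59 (adjusted p = 0.0164), with an adjusted p of 0.0506 without array K289R 5. The adjusted p of Abcg8 was 0.0560 without K289R 1 and K289R 3, 0.0936 without WT 1 and WT 3, 0.189 without all 4 and 0.0705 with all rows tested. Both genes are also known targets of LRH-1. The FXR list holds genes that FXR raises and also bile acid synthesis genes, which it represses, so its median can mix opposite directions. Of 13 FXR targets measured of 14, 1 was called higher and none lower, and the list median was 0.15. This was Abcb4, the canalicular phospholipid pump, with 574, 697, 667, 620.1, 689 and 666 on the K289R arrays against 503, 477, 369, 477, 474 and 511 on the WT arrays. The groups were apart, with a difference of 0.48 and an adjusted p of 0.00804. Baat, which joins bile acids to taurine and glycine, was not called (difference 0.22, adjusted p = 0.158).

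Thyroid hormone receptors were both on the higher side in K289R livers. TR alpha (Thra) measured 83.2, 83.5, 96.3, 79.3, 98.3 and 74.5 on the K289R arrays, against 68.4, 60.1, 62.9, 64.1, 73.8 and 79.7 on the WT arrays, and 4 of 6 K289R values exceeded all WT values (difference 0.33, 95% CI 0.15 to 0.52, adjusted p = 0.117). TR beta (Thrb), the main form of hepatocytes, measured 147, 132, 141, 138, 143 and 128 on the K289R arrays, against 118, 132, 118, 128, 124 and 131 on the WT arrays, also with 4 of 6 above (difference 0.14, adjusted p = 0.383). The difference of Thrb was 0.07 (adjusted p = 0.853) without K289R 1 and 3 and WT 1 and 3. Its spread among mice of 1 genotype was among the smallest, with a residual SD of 0.07 log2 units, and 97.1% of genes had a larger one. The retinoic acid receptors Rara (-0.04), Rarb (0.13) and Rarg (-0.02) and the vitamin D receptor Vdr (0.06, dim) had small log2 differences and none reached an unadjusted p under 0.05.

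All 7 thyroid hormone receptor targets were measured and none was called, with a list median of 0.49. Thrsp, which promotes fatty acid synthesis, had 459 ± 128 in K289R and 212 ± 107 in WT (SD, n = 6 each), a difference of 1.22 (adjusted p = 0.0561). It was called without K289R 6, WT 5 or WT 6, and its adjusted p ran from 0.0157 to 0.132 over single arrays left out. It was also called with equal array medians (adjusted p = 0.0463) and with the filter on low intensity (0.0459). Without K289R 1 and 3 and WT 1 and 3 the difference was 0.63 (adjusted p = 0.487). Gpd2, the mitochondrial glycerol phosphate dehydrogenase, gave 0.51 (adjusted p = 0.0572), and its adjusted p ran from 0.0262 (without WT 6) to 0.145 over single arrays left out. Without those 4 arrays the difference of Gpd2 was 0.26 (adjusted p = 0.506). With all arrays, Gpd2 was called with equal array medians (adjusted p = 0.0411) and with the filter on low intensity (0.0422). It was also called with a trended and robust variance model (0.0374) and with array weights (0.0397). None of 7 measured retinoic acid receptor targets of 8 was called (list median 0.04). Tgm2, a transglutaminase, had -0.21 (adjusted p = 0.360) and Dhrs3, a retinal reductase, had 0.15 (adjusted p = 0.526).

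The circadian receptors varied more among mice than between genotypes. REV-ERB alpha (Nr1d1), a haem-binding repressor of the circadian clock, measured 70.6, 74.3, 152, 311, 352 and 265 on the K289R arrays, against 57.7, 81.4, 57.5, 157, 169.6 and 184 on the WT arrays. Its highest over lowest value was 4.98 in K289R and 3.20 in WT, and arrays 4, 5 and 6 gave the 3 highest values in each group. The difference of 0.69 was the largest of any receptor, and its 95% CI of -0.20 to 1.57 included 0 (adjusted p = 0.526). It was 0.26 without WT 1 and WT 3, 1.04 without K289R 1 and K289R 3, and 0.33 with array weights. REV-ERB beta (Nr1d2) measured 47.8, 49.7, 57.1, 84.5, 104 and 88.3 on the K289R arrays, against 46.6, 33.2, 42.5, 68.5, 69.9 and 74.8 on the WT arrays, with the same 3 arrays highest in each group. Its difference was 0.36 (95% CI -0.11 to 0.83, adjusted p = 0.529). It was 0.22 without WT 2, 0.24 without K289R 5, 0.23 without WT 1 and WT 3, 0.56 without K289R 1 and K289R 3, and 0.18 with array weights. The residual SD was 0.92 log2 units for Nr1d1 and 0.48 for Nr1d2, and 0.2% and 0.8% of genes had a larger one. The Nr1d1 and Thra genes overlap in RefSeq. All mice were killed at the same hour by the labels, and the labels do not say whether array numbers mark a batch. What sets arrays 4 to 6 apart was not tested.

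RORalpha (Rora), which activates through the same DNA elements that REV-ERB represses, had a residual SD of 0.10. It measured 284, 332, 354, 319, 321 and 326 on the K289R arrays, against 252, 253, 247, 272, 289.6 and 279 on the WT arrays, with 5 of 6 K289R values above all WT values. The difference was 0.28 (95% CI 0.14 to 0.43, 1.22-fold, adjusted p = 0.0819), and 0.24 without WT 1 and WT 3 (adjusted p = 0.281). Rorb was dim, with a difference of -0.13. None of 6 measured REV-ERB and ROR targets of 7 was called, nor any of the 10 E-box clock genes. The list medians were 0.04 and 0.09. Arntl (BMAL1, the positive clock factor) had 101 to 121 in K289R livers and 95.6 to 107 in WT livers. Per2, a clock repressor, measured 172, 120.5, 126, 104, 86.1 and 94.4 on the K289R arrays, against 109, 109, 113, 92.8, 114 and 97.1 on the WT arrays. The highest K289R value was on K289R 1, where Nr1d1 was 70.6, and the highest WT value on WT 5, where Nr1d1 was 169.6. Bhlhe41 gave -0.11 (adjusted p = 0.505), Dbp -0.18 (adjusted p = 0.299) and Cry2 0.17 (adjusted p = 0.428).

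**Figure D3:**
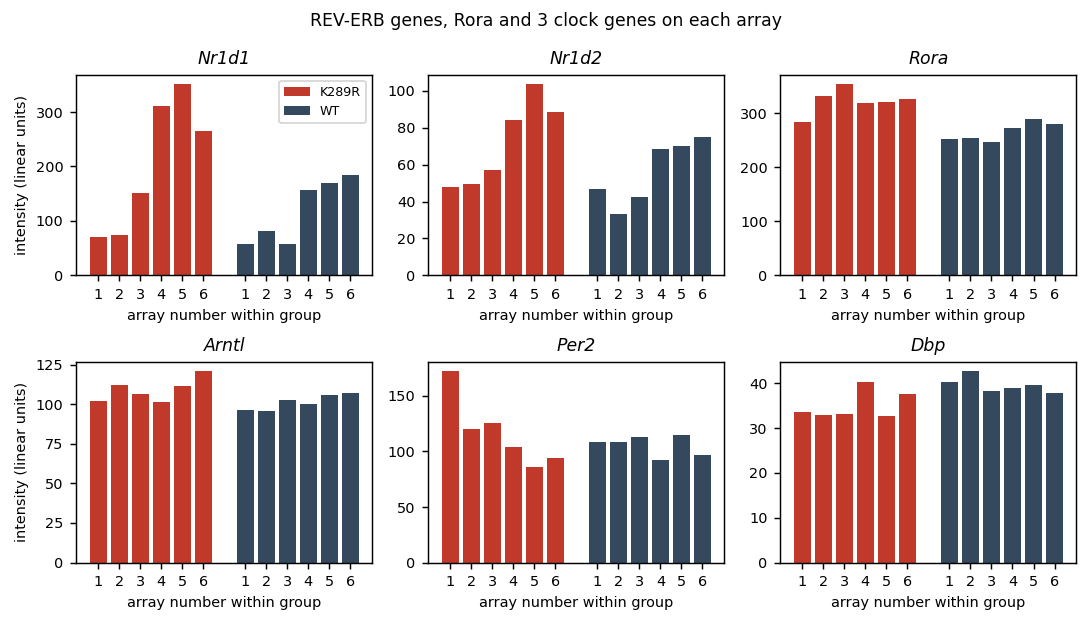
Intensity (linear units) of Nr1d1, Nr1d2, Rora, Arntl, Per2 and Dbp, 1 bar per array by its number within the group, K289R left of WT. Arrays 4 to 6 held the 3 highest values of Nr1d1 and Nr1d2 in each group, while Arntl stayed within 95.6 to 121 over all 12 arrays.

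The shared RXR partners had differences of -0.02 to 0.08 and the hepatocyte receptor HNF4 alpha one of -0.13, and none was called. RXR alpha (Rxra), the partner of PPAR, LXR, FXR, PXR, CAR and thyroid hormone receptors, measured 493, 526, 598, 593, 625 and 508 on the K289R arrays, against 667, 519.7, 538, 542, 591 and 510.0 on the WT arrays. The difference was -0.01 (95% CI -0.19 to 0.17, adjusted p = 0.971). Rxrb gave -0.02 and Rxrg 0.08. HNF4 alpha (Hnf4a), a regulator of hepatocyte identity, measured 1480.5, 1555, 1636, 1703, 1499 and 1759.8 on the K289R arrays, against 2167, 1684, 1539, 1817, 1716 and 1674 on the WT arrays. Its highest value, 2167, was that of array WT 1, and the difference was -0.13 (95% CI -0.30 to 0.04, adjusted p = 0.528). Without that array the difference was -0.07 (adjusted p = 0.704). Hnf4g was dim and gave -0.05. None of 14 measured HNF4 alpha targets of 16 was called, with a list median of 0.00. Apoa4, a lipoprotein gene, gave -0.54 (adjusted p = 0.193) and Mttp, which loads lipid onto apolipoprotein B, gave 0.12 (adjusted p = 0.473).

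The steroid receptors had differences near 0 throughout. The glucocorticoid receptor (Nr3c1), which raises gluconeogenic genes, measured 133, 152, 140.4, 138, 168 and 129.7 on the K289R arrays, against 135, 139, 137, 147, 145 and 161 on the WT arrays, and the groups covered the same range (difference -0.01, 95% CI -0.17 to 0.15, adjusted p = 0.975). The mineralocorticoid receptor Nr3c2 gave -0.05, oestrogen receptor alpha Esr1 -0.00, oestrogen receptor beta Esr2 -0.08 and the progesterone receptor Pgr -0.09, and the probe sets of Esr2 and Pgr were dim. All 16 glucocorticoid receptor targets were measured and 1 was called higher, with a list median of 0.23. It was G6pc, the glucose-6-phosphatase that releases glucose, with 2606, 2602, 2879.7, 2283, 2524 and 2444 on the K289R arrays, against 1936, 1219, 805, 1441, 1323 and 2032 on the WT arrays. The groups were apart (difference 0.87, adjusted p = 0.0218), and the call was lost without K289R 2, 3 or 5 or WT 2. It was also lost without K289R 1 and K289R 3 together (adjusted p = 0.124), with a trended and robust variance model (0.0774) and with all rows tested (0.0977). Igfbp1, an insulin-repressed secreted protein, was not called (1.32, adjusted p = 0.0629) but was when WT 1 or WT 6 was left out. Its adjusted p ran from 0.0157 to 0.155 over single arrays left out. Igfbp1 was also called with the filter on low intensity (adjusted p = 0.0493).

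Of 19 measured enzymes that make or clear receptor ligands, of 22 listed, 1 was called higher (list median 0.09). Cyp17a1, which makes steroid precursors, measured 487, 636, 539, 603, 453 and 1005 on the K289R arrays, against 113, 204, 176, 125, 110.3 and 142 on the WT arrays. The groups were far apart, with a difference of 2.08 and an adjusted p of 9.33e-06. Rdh16, a retinol dehydrogenase, was not called (difference 0.50, adjusted p = 0.0753). Its adjusted p ran from 0.00977 (without WT 6) to 0.175 over single arrays left out, and was 0.485 without K289R 1 and 3 and WT 1 and 3.

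Among the orphan receptors of the NR2 group, TR2 (Nr2c1) had the smallest adjusted p. It measured 126, 139, 118, 137, 162 and 148 on the K289R arrays, against 113, 86.1, 91.6, 94.5, 125 and 117 on the WT arrays, with 5 of 6 K289R values above all WT values. The difference was 0.41 (95% CI 0.19 to 0.62, 1.33-fold) with an adjusted p of 0.0923, which ran from 0.0466 (without WT 5) to 0.219 over single arrays left out. Its relative TR4 (Nr2c2) gave 0.13. COUP-TFI (Nr2f1) was dim, at 17.3, 17.7, 16.7, 16.3, 15.6 and 18.0 on the K289R arrays and 17.1, 20.5, 17.6, 18.7, 18.4 and 20.0 on the WT arrays (difference -0.14, adjusted p = 0.407). COUP-TFII (Nr2f2) gave -0.07, EAR2 (Nr2f6) 0.00 and TLX (Nr2e1) -0.19 (adjusted p = 0.415).

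The oestrogen-related receptors work with PGC-1 coactivators on mitochondrial genes. Esrra gave -0.07 and Esrrg 0.10. Esrrb was dim, at 12.9, 13.5, 13.6, 14.9, 16.1 and 18.5 on the K289R arrays and 17.3, 21.3, 14.6, 20.4, 16.4 and 17.0 on the WT arrays (difference -0.26, adjusted p = 0.337). The NR4A receptors are induced within minutes by hormones and stress. Nr4a1 measured 18.4, 23.7, 21.2, 21.7, 18.4 and 28.1 on the K289R arrays, against 39.0, 25.9, 30.5, 22.7, 23.3 and 24.9 on the WT arrays, with 4 of 6 K289R values below all WT values. The difference was -0.33 (95% CI -0.60 to -0.05, adjusted p = 0.329). Its largest value, 39.0, was on array WT 1, and without WT 1 and WT 3 the difference was -0.16 (adjusted p = 0.619). Without those and K289R 1 and K289R 3 it was -0.09 (adjusted p = 0.867). Nr4a2 gave -0.10 and Nr4a3 -0.09. Steroidogenic factor 1 (Nr5a1), the closest relative of LRH-1, gave -0.09 and the germ cell factor Nr6a1 0.11. DAX-1 (Nr0b1) was dim and gave 0.06.

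All 16 immediate early genes were measured and none was called. Their median was -0.11, with 14 of 16 negative and 5 lower at an unadjusted p under 0.05, where 5.61% of all genes were lower. Egr1 had 54.7, 48.7, 61.4, 57.3, 73.7 and 65.5 on the K289R arrays, against 336, 116, 122, 68.5, 111 and 82.4 on the WT arrays, a difference of -1.01 (adjusted p = 0.122). Without WT 1, which held the highest value, the difference was -0.71 (adjusted p = 0.0324), and over single arrays left out the adjusted p reached 0.234. Without WT 1 and WT 3 it was -0.63 (adjusted p = 0.103). Fos had 18.4 ± 2.63 in K289R and 26.2 ± 6.97 in WT (SD, n = 6 each), a difference of -0.47 (adjusted p = 0.232). Its adjusted p ran from 0.0231 (without WT 5) to 0.416 over single arrays left out, and the difference was -0.30 (adjusted p = 0.494) without WT 1 and WT 3.

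Coregulators complete the set. Of 23 coactivators, all measured, 1 was called higher (list median -0.01). It was Ppargc1a (PGC-1 alpha), the coactivator of PPAR alpha, HNF4 alpha and the oestrogen-related receptors in the fasted liver. It measured 92.0, 84.1, 87.8, 85.1, 85.2 and 75.2 on the K289R arrays, against 70.9, 56.1, 56.7, 54.4, 54.5 and 66.5 on the WT arrays, with no overlap (difference 0.51, adjusted p = 0.00426). Ncoa1, a steroid receptor coactivator, was not called (0.16, adjusted p = 0.395). None of 13 measured corepressors of 15 was called (list median 0.05). Nrbf2, a receptor-binding factor, gave 0.27 (adjusted p = 0.167), and Hdac3, the deacetylase of the NCoR complex, 0.22 (adjusted p = 0.199) although all 6 of its K289R values, 255 to 303, lay above the WT values of 202 to 254. Over all 189 genes measured in the target, coregulator, ligand-enzyme, E-box clock and immediate early lists, 8 were called (4.23%, against 0.572% of all genes). Each of the 8 was higher in K289R. Without arrays K289R 1 and K289R 3 the count was 4. The lists hold genes known from earlier results of these data, so the share is a description only.

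**Figure D4:**
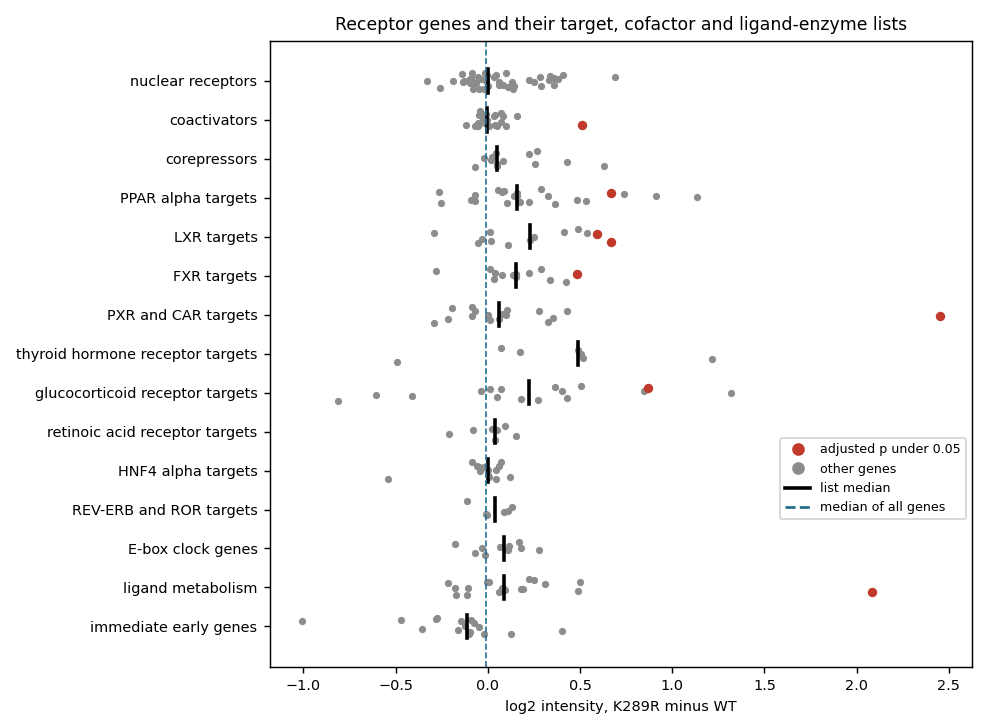
Difference in log2 intensity (K289R minus WT) of each gene in the receptor family and in the 14 lists of targets, coregulators, ligand enzymes, E-box clock genes and immediate early genes. Red points had an adjusted p under 0.05; the thyroid hormone receptor targets had the highest list median, 0.49, and the immediate early genes the lowest, -0.11.

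The receptors varied among mice of 1 genotype about as much as other genes. The median residual SD was 0.15 log2 units for the 43 receptors and 0.15 for all genes. Beyond Nr1d1 and Nr1d2, the widest were Pparg and Rarb at 0.29, with 3.8% of genes wider, and Nr4a1 at 0.27, with 5.3% wider. Of the 31 receptors that did not reach an unadjusted p under 0.05, 20 lay above the array median on all arrays, and 17 of these had a difference within 0.15 log2 units of 0.

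**Figure D5:**
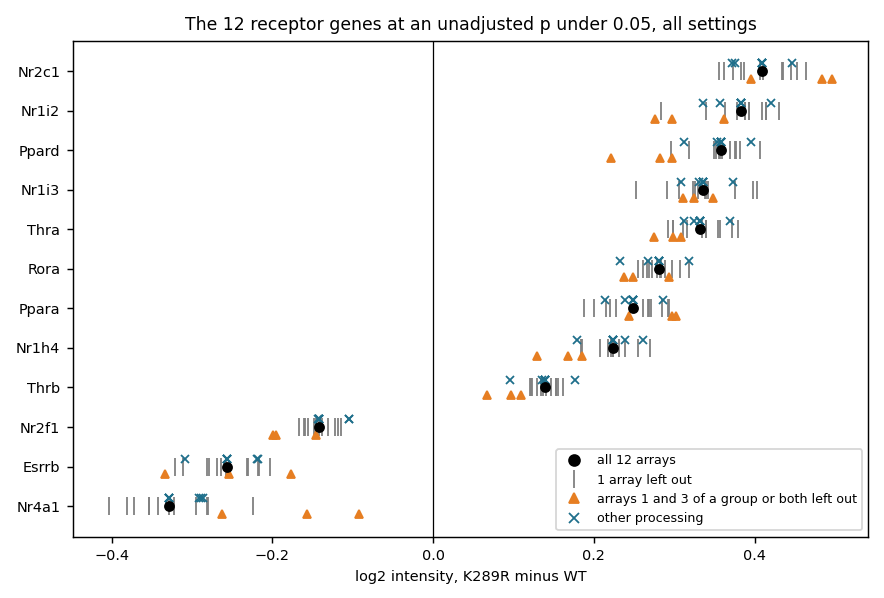
Log2 difference (K289R minus WT) of the 12 receptor genes at an unadjusted p under 0.05, with all arrays (circles) and under 23 alternatives: 1 array left out (ticks), arrays 1 and 3 of a group or of both left out (triangles) and other processing (crosses). Each of the 12 kept its sign in every alternative run for it, which was 23 for 9 genes and 22 for Nr2f1, Esrrb and Nr4a1, removed by the filter on low intensity. The 12 were picked by p on these same arrays, so the kept signs are a description only.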

How the data were processed

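Liver RNA of 12 mice was hybridised to Affymetrix gene arrays, 1 per mouse. The deposited values are linear summarised intensities made by the authors with Affymetrix Expression Console, per the submitters' processing notes. The sources used here do not state how background and scale were handled, and the linear scale was judged from the values. Of 35556 rows, 21789 had 1 gene symbol and were used, 1621 had several and 12146 had none.

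A gene with several probe sets was represented by the one with the highest mean log2 value, which concerned no receptor. Log2 intensities of K289R and WT were compared with limma 3.58.1 in R 4.3.3 (lmFit, eBayes, no covariates), with two-sided p-values adjusted by Benjamini-Hochberg over 19938 genes. A gene was called at an adjusted p under 0.05. The fit was tested on simulated data. Means ± SD are of linear intensities. The number of arrays limits the precision. No detection call was used, and slide or scan batch was not analysed here. The labels describe the samples as biological replicates.

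The receptor genes, the pathway lists and the arrays to leave out were chosen with earlier results of these data known. Array values are given for receptors at an unadjusted p under 0.05 and for 11 well-known hepatic members. Array values of Nr1d2 and Per2 were added after they were seen. From each list up to 4 called genes, or the 2 with the smallest p, are named. Names came from the platform annotation, and all 43 gene IDs matched RefSeq (GRCm38.p6), which supplied the promoters. Alternatives were other normalizations, a filter on low-intensity genes, other variance models, probe-set averaging, all rows, a replicate block and left-out arrays. Figures used matplotlib 3.10.9.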

Additional observations from a re-analysis of the deposited data

Results flagged for a closer look

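In 6 of 142 groups of 6 arrays tested, 1 array lay far from the others by Dixon's test, which flags about 1 group in 20 by chance. The ratio given is the gap to the nearest array over the range of the group, both on the log2 scale. The intensities beside it are linear. Of 86 groups of receptor genes, 3 did so. Nr1i2 on array WT 3 was the lowest of its group at 160, with the next WT array at 230 (ratio 0.711). Pgr on array WT 1 was the lowest at 9.40, with the next at 11.4 (ratio 0.725), both under the array median. Esrrg on array WT 3 was the lowest at 25.8, with the next at 32.0 (ratio 0.638). Among the listed genes, Abcb4 on array WT 3 was the lowest at 369, with the next at 474 (ratio 0.772). Egr1 on array WT 1 was the highest at 336, with the next at 122 (ratio 0.635). Fos on array K289R 6 was the highest at 23.6, with the next at 18.5 (ratio 0.656).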

How the results depend on the processing

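The count of receptor genes called, 0 as reported, was 2 with low-intensity genes left out (those whose mean log2 value was under the median of all rows in both groups, 12 receptors among them; Ppard 0.0497 and Rora 0.0475, adjusted p), 1 with a trended and robust variance model (Ppard 0.0495) and 1 with the replicate block (Nr2c1 0.0481), and ran from 0 to 1 when each array was left out. With that filter the median of the receptors kept was 0.10, against 0.00 to 0.03 over all measured receptors with single arrays left out. All 12 receptors at an unadjusted p under 0.05 kept their sign in each alternative run for them, 23 for 9 of them and 22 for Nr2f1, Esrrb and Nr4a1, which the filter removed. These 12 were picked by p on the same arrays that the alternatives reuse, so the kept signs are no separate test. Genes called among the lists, 8 as reported, were 4 with all rows of the table and 4 without K289R 1 and 3, and 4 to 13 with single arrays left out. All genes called, 114 as reported, were 75 without K289R 1 and 3, 65 without those and WT 1 and 3, 76 with all rows tested, and 81 to 159 with single arrays left out. With the replicate number as a block (replicate block), 111 genes were called, Acot3 was not (adjusted p = 0.0790), and the adjusted p was 0.116 for Nr1d1 and 0.113 for Nr1d2, against 0.526 and 0.529 without it. The labels do not say that a number marks a batch, and the check of pairing was not met, since only 2 of 6 same-numbered pairs had deviations correlated above 0.1, and 1 of 6 K289R arrays correlated best with its own number. Signs turned in 54 results of 14 receptors, all with small differences. With equal array medians the differences were 0.029 for Nr3c1, 0.035 for Esr1, 8.03e-05 for Rara, 0.019 for Rarg, 0.027 for Rxra and 0.019 for Rxrb. With quantile normalization the differences were 0.011 for Rarg and -0.041 for Nr2f6. With array weights the difference was 0.026 for Esr1. Without K289R arrays 1 and 3 the differences were 0.025 for Nr3c1, 0.0056 for Rxra and -0.0054 for Nr2f6. Without WT arrays 1 and 3 the differences were 0.044 for Esr1, 0.030 for Rara, -0.027 for Rarb, -0.0091 for Nr1h5, 0.040 for Rxra and -0.0019 for Nr0b1. Without all 4 of these arrays the differences were 0.045 for Esr1, 0.0063 for Rara, -0.037 for Rarb, -0.00058 for Nr1h5, 0.056 for Rxra and -0.0086 for Esrrg. With single arrays left out, ranges that crossed 0 were -0.061 to 0.043 for Esr1, -0.021 to 0.12 for Nr0b1, -0.011 to 0.066 for Nr1h3, -0.049 to 0.033 for Nr2f6, -0.055 to 0.025 for Nr3c1, -0.081 to 0.0040 for Nr3c2, -0.076 to 0.017 for Rara, -0.043 to 0.020 for Rarg, -0.045 to 0.041 for Rxra, -0.051 to 0.014 for Rxrb and -0.023 to 0.10 for Vdr. The cause was not tested. No background level was used here, so it is unknown how far the dim receptors lay above it.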
